A study of Mus musculus with 8 samples.

Results

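The genes of the enzymes that write, copy and remove DNA methylation were examined in mouse muscle stem cells. The 9 genes were taken by name: Dnmt1 and Uhrf1 for maintenance, Dnmt3a, Dnmt3b and Dnmt3l for de novo methylation, and Tet1, Tet2, Tet3 and Tdg for demethylation. They are 9 of 49980 placed RefSeq genes, of which 21900 are protein-coding. A cluster was counted for a gene where at least 1 bp of it lay within 3000 bp of the gene's bounds, and 18 of the 27878 deposited clusters met this rule.

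The assay was reduced representation bisulfite sequencing (RRBS). It samples the CpG-dense part of the genome and tells methylated from unmethylated cytosines there. The samples were sorted skeletal muscle stem cells of mice of the strain Tg:Pax7-nGFP/+, whose nuclear GFP reports Pax7, a transcription factor characteristic of muscle stem cells. The 4 fixed samples were treated with 0.5% paraformaldehyde and carry T0 in their titles, and the 4 live samples were not fixed and carry T3. The labels state 4 animals for each group and no age or sex. Every sample shares the reporter, sorting and DNA extraction. What T0 and T3 stand for is not spelled out, and the design text puts fixation after the isolation while the series title calls it in situ, so fixation and any difference in handling cannot be told apart. The files hold the position of each cluster and the authors' verdict on fixed against live, with no value per sample and no read depth. No methylation level can therefore be given for these genes, and the cell type label could not be checked against markers.

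In mammals, DNA methylation sits mostly on the cytosines of CpG pairs. Dnmt1 copies the pattern onto the new strand after replication and is brought there by Uhrf1, which binds hemimethylated DNA. Dnmt3a and Dnmt3b place methyl groups on unmethylated DNA, and Dnmt3l has no catalytic activity of its own but stimulates them in germ cells. Tet1, Tet2 and Tet3 oxidise 5-methylcytosine, and Tdg, thymine DNA glycosylase, cuts out the most oxidised forms so that repair can restore an unmethylated cytosine.

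No cluster at these genes was called different between fixed and live cells. The authors' verdict was not significant for each of the 18 clusters, beside 0.0753% called over all clusters (21 of 27878). At that share only 0.0136 calls would be expected among 18, and a count of 0 allows a called share of up to 16.7%, so the count cannot show that these genes were spared. The clusters were spread over 8 of the 9 genes, with 6 at the maintenance genes, 4 at the de novo genes and 8 at the demethylation genes. All 18 lay inside the gene bounds and 0 in the 3000 bp flanks. Over the protein-coding genes whose strand is known, 21.1% of the clusters counted had their midpoint in a flank.

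The clusters that overlapped a start window of their own gene were at Dnmt1, Uhrf1, Dnmt3a and Dnmt3b. Their start windows, which run from 250 bp before to 50 bp after a RefSeq transcript start (GRCm38.p6, the assembly that mm10 names), are shown because they carry that overlap. Each is written 5′ to 3′ in the direction of transcription, and capitals mark the bases inside a cluster.
Dnmt1, chr9:20952574-20952873, minus strand: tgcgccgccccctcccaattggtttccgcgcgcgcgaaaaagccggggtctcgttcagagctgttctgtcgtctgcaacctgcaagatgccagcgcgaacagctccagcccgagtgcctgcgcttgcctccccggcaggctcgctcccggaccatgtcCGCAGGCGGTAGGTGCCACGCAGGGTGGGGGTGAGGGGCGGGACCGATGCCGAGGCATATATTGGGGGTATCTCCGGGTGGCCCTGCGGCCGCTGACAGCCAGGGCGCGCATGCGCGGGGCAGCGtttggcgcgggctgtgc
Uhrf1, chr17:56304063-56304362, plus strand: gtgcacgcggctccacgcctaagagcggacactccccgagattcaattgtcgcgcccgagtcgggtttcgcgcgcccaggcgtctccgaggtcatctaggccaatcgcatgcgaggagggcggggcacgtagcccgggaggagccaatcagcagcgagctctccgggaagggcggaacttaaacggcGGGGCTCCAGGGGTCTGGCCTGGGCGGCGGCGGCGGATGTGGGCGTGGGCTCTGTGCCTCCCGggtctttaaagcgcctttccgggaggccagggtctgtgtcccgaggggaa
Dnmt3a, chr12:3806910-3807209, plus strand: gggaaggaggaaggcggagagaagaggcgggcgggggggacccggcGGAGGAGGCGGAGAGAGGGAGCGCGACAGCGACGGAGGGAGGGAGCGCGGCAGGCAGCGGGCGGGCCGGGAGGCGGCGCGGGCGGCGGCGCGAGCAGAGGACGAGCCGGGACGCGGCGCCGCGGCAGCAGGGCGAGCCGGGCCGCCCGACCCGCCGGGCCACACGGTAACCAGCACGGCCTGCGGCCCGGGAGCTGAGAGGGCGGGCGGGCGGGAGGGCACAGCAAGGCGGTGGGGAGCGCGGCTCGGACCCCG
Dnmt3b, chr2:153649199-153649498, plus strand: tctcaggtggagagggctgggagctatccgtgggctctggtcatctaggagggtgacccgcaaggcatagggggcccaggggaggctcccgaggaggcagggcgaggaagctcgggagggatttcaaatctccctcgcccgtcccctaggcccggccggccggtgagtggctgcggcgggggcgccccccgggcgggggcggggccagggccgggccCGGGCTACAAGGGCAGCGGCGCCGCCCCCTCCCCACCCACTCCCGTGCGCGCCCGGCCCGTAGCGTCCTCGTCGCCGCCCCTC

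In the Dnmt3a window shown, that of the second listed start, 254 of the 300 bases and 42 of 47 CpG lay inside the cluster. The window of its first listed start overlaps it and had 74 bases with 10 of 46 CpG inside the same cluster. In the Dnmt1 window 125 bases with 14 of 33 CpG were covered, in the Dnmt3b window 83 bases with 13 of 30 CpG, and in the Uhrf1 window 63 bases with 6 of 33 CpG. The windows of Dnmt3b and Dnmt3a hold only the beginning of longer clusters, whereas those of Dnmt1 and Uhrf1 hold the whole cluster. Cluster ends lay on CpG pairs. Where a start window of any RefSeq gene held a cluster's first or last base, 1722 of 1724 first bases and 1681 of 1682 last bases belonged to a CpG, and so did the 5 first and 3 last bases seen for the 18 clusters.

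For comparison, 3 start windows that overlapped no cluster are shown in lower case. They are the first listed window of Dnmt3l and the windows of Tet2 and Tdg.
Dnmt3l, chr10:78042037-78042336, plus strand: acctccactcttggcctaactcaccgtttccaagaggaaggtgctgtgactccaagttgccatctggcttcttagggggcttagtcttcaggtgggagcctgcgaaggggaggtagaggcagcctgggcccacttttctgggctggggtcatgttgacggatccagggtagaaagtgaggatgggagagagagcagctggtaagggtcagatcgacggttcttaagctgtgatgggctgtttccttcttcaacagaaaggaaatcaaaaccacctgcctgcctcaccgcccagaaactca
Tet2, chr3:133544341-133544640, minus strand: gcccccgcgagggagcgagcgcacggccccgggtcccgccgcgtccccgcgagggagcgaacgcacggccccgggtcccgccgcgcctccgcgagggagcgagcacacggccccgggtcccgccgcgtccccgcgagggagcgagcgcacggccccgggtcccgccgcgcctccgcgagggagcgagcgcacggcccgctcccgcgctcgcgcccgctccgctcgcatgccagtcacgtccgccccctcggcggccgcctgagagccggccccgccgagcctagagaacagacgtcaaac
Tdg, chr10:82629588-82629887, plus strand: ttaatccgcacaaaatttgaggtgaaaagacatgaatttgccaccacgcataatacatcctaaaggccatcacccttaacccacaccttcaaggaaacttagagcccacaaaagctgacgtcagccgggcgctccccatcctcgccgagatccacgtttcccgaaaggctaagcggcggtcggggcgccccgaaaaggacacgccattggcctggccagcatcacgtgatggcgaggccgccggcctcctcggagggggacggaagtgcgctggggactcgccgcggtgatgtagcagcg

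The Tet2 window held 57 CpG, more than 99.8% of all start windows, and the Tdg window 26. The first Dnmt3l window held 6, close to the median of 7 over 32851 start windows.

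The maintenance gene Dnmt1 had the most clusters of the 9. Its gene (chromosome 9, 20907206 to 20959888, minus strand) held 5, and 3.86% of protein-coding genes had as many or more. In the order of transcription they were 98, 125, 1, 76 and 176 bp long. The first lay 1037 bp downstream of the most upstream listed start, at 2.06% of the gene's length. The second lay across the start at 20952623, at 13.7%. The single position followed at 14.3%, 238 bp further on, which was the shortest gap at any of the genes. The fourth stood at 30.6% and the last at 97.4%, close to the 3′ bound, after a gap of 35058 bp.

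Mouse Dnmt1 is known to use more than 1 start, among them an oocyte start upstream of the somatic start, but the table does not name which listed start is which. Of its 3 listed start windows, the most upstream held 2 CpG, the next 12 and the third 33, and only the third overlapped a cluster. The 5 clusters covered 476 bp together, and their density of 8.52 per 100 kb of gene and flanks was the highest of the 9 genes and above that of 85.9% of protein-coding genes.

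Uhrf1 (chromosome 17, 56303337 to 56323486, plus strand) held 1 cluster of 63 bp. The cluster ended 1 bp before its second listed start, at 4.68% of the gene, and the first listed start lay 913 bp upstream of it. The window of that first start held 12 CpG and no cluster, against 33 CpG in the covered window. The 19174 bp from the cluster's end to the 3′ bound, or 95.2% of the gene, held no cluster. Kdm4b, a histone demethylase gene, also reached into the 3000 bp flank of Uhrf1 but held none of its clusters.

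**Figure D1:**
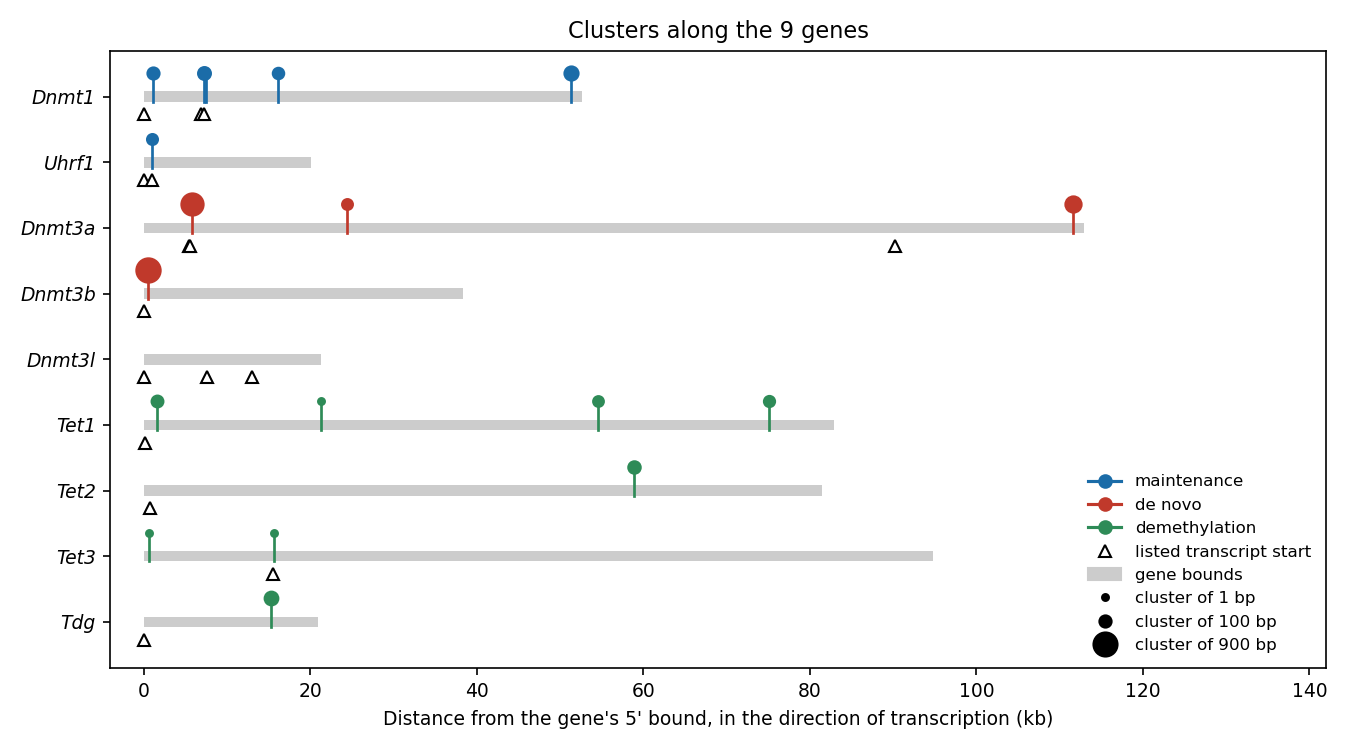
Positions of the 18 clusters along the 9 genes, in kb from the 5′ bound in the direction of transcription; grey bars are gene bounds, triangles listed transcript starts, and circle size gives cluster length. The 2 largest circles stand at the starts of Dnmt3a and Dnmt3b, and Dnmt3l has none.

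The de novo methyltransferase genes carried the longest clusters. Dnmt3b (chromosome 2, 153649411 to 153687730, plus strand) held a single cluster of 927 bp. It began 5 bp inside the gene and ran across the listed start at 153649449. The 37388 bp from the cluster's end to the 3′ bound, 97.6% of the gene's length, held none. Among all clusters 65 were 927 bp or longer, and 99.8% were shorter.

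Dnmt3a (chromosome 12, 3801559 to 3914443, plus strand) held 3 clusters, of 724, 60 and 282 bp. The longest ran across the listed starts at 3806980 and 3807160, whose windows held 46 and 47 CpG. The 60 bp cluster stood at 21.6% of the gene, 18218 bp after the first, and the 282 bp cluster at 98.8%, near the 3′ bound. The 87029 bp between these last clusters were the longest stretch without a cluster at any of the 9 genes, and they included the third listed start, at 3891744, whose window held 18 CpG. The noncoding RNA genes Dnmt3aos and Gm31623 lie in that stretch. A cluster of at least 724 bp was present at 1.60% of the protein-coding genes that held any cluster (168 genes). That length was taken from Dnmt3a itself, so Dnmt3a and Dnmt3b reach it by the choice of cut-off, and no enrichment was tested. The longest clusters of Dnmt3a and Dnmt3b together spanned 1651 bp, or 54.7% of the 3016 bp covered at the 9 genes.

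Dnmt3l (chromosome 10, 78042287 to 78063622, plus strand) held 0 clusters, as did 52.2% of protein-coding genes. Of protein-coding genes in the same length class, from 11630 to 24576 bp, 47.9% held a cluster. Its 3 listed start windows held 6, 4 and 3 CpG. The nearest cluster lay 7792 bp from the gene. Aire, the autoimmune regulator gene, overlaps the 5′ bound of Dnmt3l, and it added no cluster to the window.

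**Figure D2:**
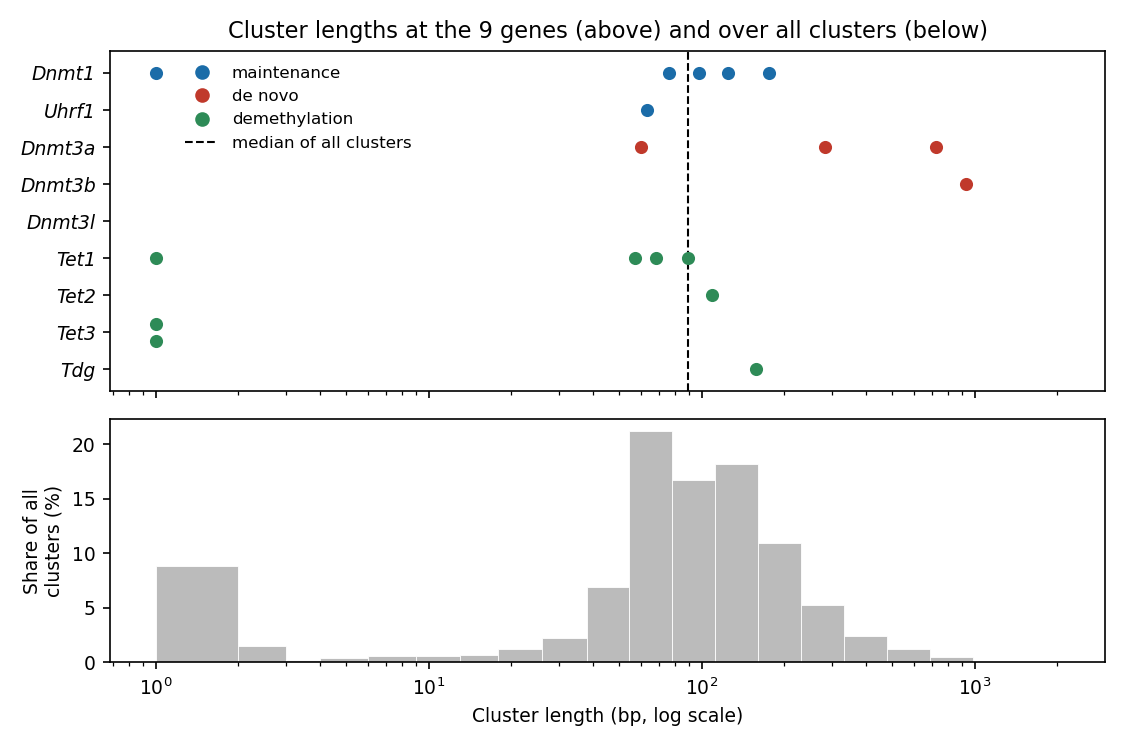
Length in bp (log axis) of each cluster at the 9 genes, coloured by role, above the lengths of all 27878 clusters; the dashed line is the median of all clusters, 89 bp. The clusters of 724 and 927 bp belong to Dnmt3a and Dnmt3b, and both clusters of Tet3 are single positions, drawn apart to be visible.

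The demethylation genes held 8 clusters, none of which overlapped a listed start window of its own gene. Tet1 (chromosome 10, 62804570 to 62887469, minus strand) had 4, of 89, 1, 57 and 68 bp in the order of transcription, and 6.41% of protein-coding genes had as many or more. The first lay 1397 bp downstream of the listed start, and the others at 25.6%, 65.8% and 90.5% of the gene. The gaps between them were 19610, 33265 and 20462 bp. The longest stretch without a cluster was 40.1% of the gene, the smallest such share of the 9 genes. The noncoding RNA gene Gm51805 overlaps the 5′ part of Tet1, and the first 2 clusters lie in both genes.

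Tet2 (chromosome 3, 133463677 to 133545136, minus strand) held 1 cluster of 109 bp at 72.3% of its length. That cluster lay 58093 bp downstream of the listed start, so the CpG-rich start window printed above and everything between them held none. Tet3 (chromosome 6, 83362373 to 83457208, minus strand) held 2 clusters, each a single position. The first lay 582 bp inside the 5′ bound, 14948 bp upstream of the listed start. The second lay 136 bp downstream of that start, outside its window. Of the protein-coding genes that held any cluster, 10.1% held only single positions. Tdg (chromosome 10, 82629814 to 82650799, plus strand) held 1 cluster of 158 bp at 72.6% of its length, 15130 bp downstream of its start.

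Of the 16 listed windows, 5 overlapped a cluster, beside 7.76% of all 32851 windows. They were 2 of 5 maintenance windows, 3 of 7 de novo windows and 0 of 4 demethylation windows. These few windows were compared by no test, and the counts depend on the window: within 1000 bp of a listed start lay 3 clusters at maintenance genes, 2 at de novo genes and 1 at a demethylation gene, Tet3. They also depend on the starts listed. Tet3 has 1 listed start, away from its 5′ bound, so its cluster 582 bp inside that bound does not count as near a start. The 2 covered Dnmt3a windows overlap each other and the same cluster. Among windows with at least 20 CpG, 5 of 8 windows of these genes were covered, against 19.0% of 8701 windows over all genes. The 5 are those of Dnmt1, Uhrf1, Dnmt3a and Dnmt3b, and the 3 without a cluster are those of Tet2, Tet3 and Tdg. Over all genes the covered share was 0.216% of windows with 0 to 4 CpG, 12.7% with 15 to 19 and 23.7% with 30 to 67.

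**Figure D3:**
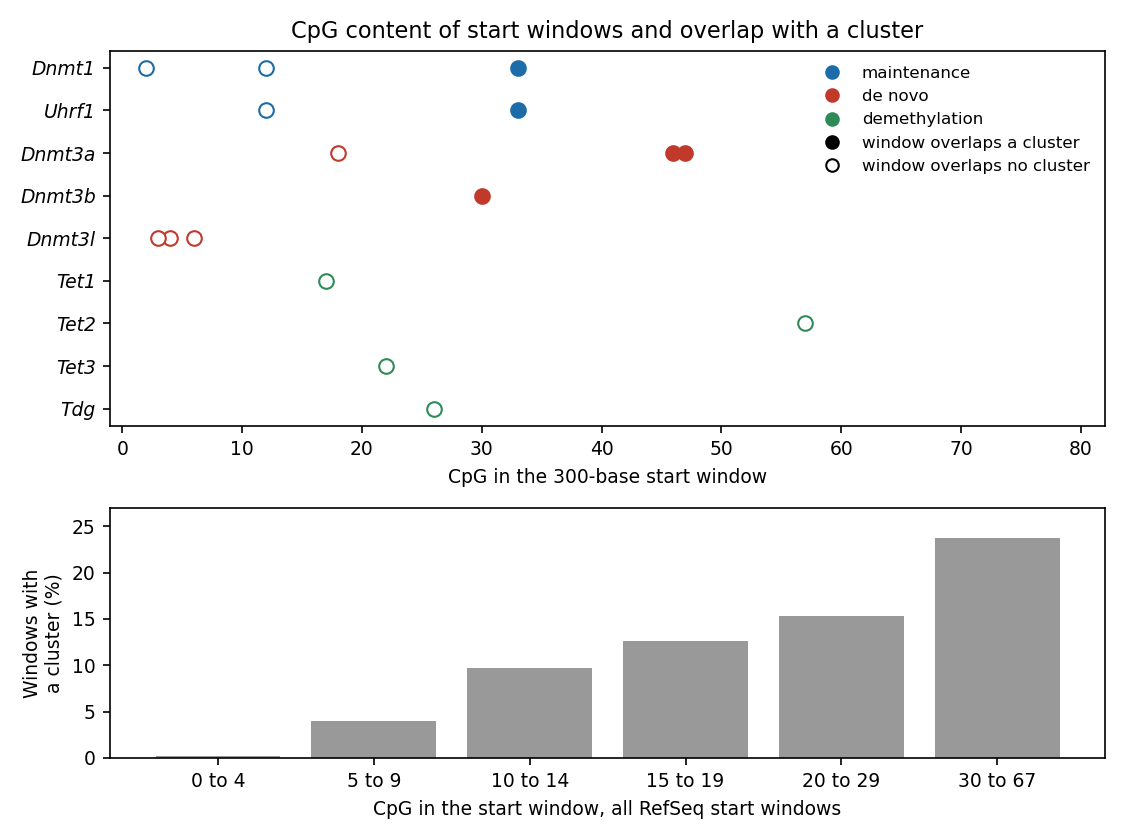
Above, CpG in each listed 300-base start window of the 9 genes, filled where the window overlaps a cluster; below, the share of all RefSeq start windows with a cluster, by CpG. The filled windows hold 30 to 47 CpG, and the Tet2 window, with 57, is empty.

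The letters CCGG, the site of MspI, which is the usual enzyme of this assay although the labels do not name the enzyme, were counted in each window. The site reads the same on both strands and contains a CpG. It was present in 52.8% of all start windows. Of all windows without it 0.0387% overlapped a cluster, against 14.7% of windows with it. The covered windows of the 9 genes held 4 copies at Dnmt1 and Uhrf1, 8 and 6 at Dnmt3a and 7 at Dnmt3b. Of the windows without a cluster, Tet2 held 5 copies, Tet3 4, the third Dnmt3a start 4, and Tet1, Tdg and the first Uhrf1 start 2 each. The other 5 windows, all 3 of Dnmt3l and the first 2 of Dnmt1, held 0.

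The number of clusters ran from 0 at Dnmt3l to 5 at Dnmt1, and 8 of the 9 genes held a cluster. Protein-coding genes held a cluster in 47.8% of cases (exact Clopper-Pearson 95% interval 47.2 to 48.5%, counting error only). That interval takes genes as independent, although neighbouring genes can share a cluster. All 9 genes are longer than the protein-coding median of 17146 bp, and longer genes held clusters more often, from 22.7% of the shortest 20% of protein-coding genes to 71.8% of the longest 20%, in which Dnmt3a, Tet1, Tet2 and Tet3 stand. Over gene and flanks the 9 genes had 3.11 clusters per 100 kb and all protein-coding genes 1.89. The maintenance genes had 7.07 (8.52 at Dnmt1 and 3.82 at Uhrf1), the de novo genes 2.10 and the demethylation genes 2.63.

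**Figure D4:**
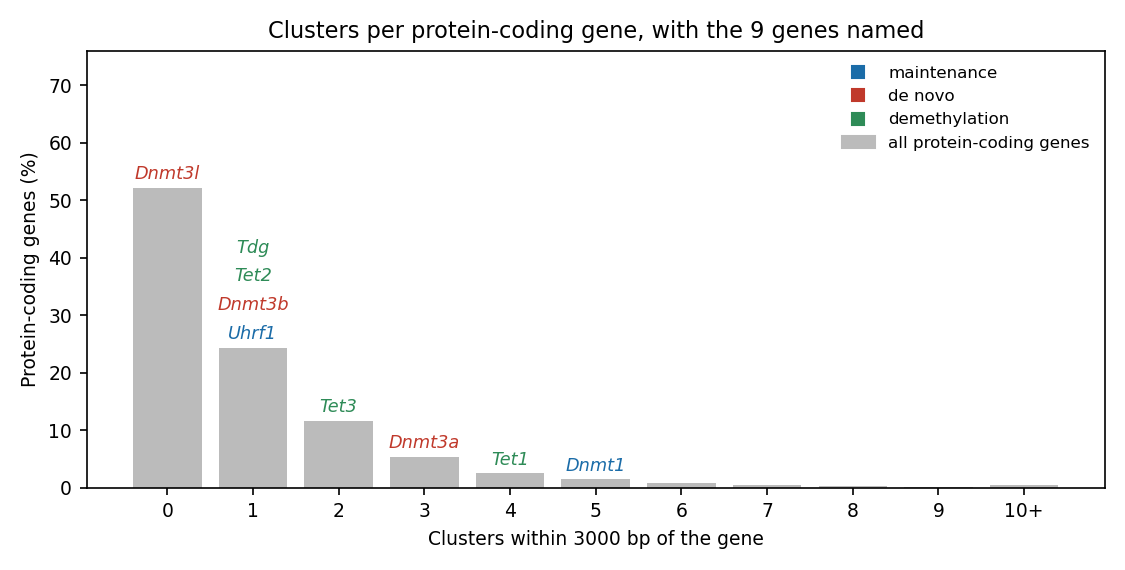
Share of 21900 protein-coding genes (%) by number of clusters within 3000 bp, with the 9 genes written above their own number and coloured by role. Dnmt3l stands at 0, Dnmt1 at 5, and 4 of the 9 genes at 1.

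In length, the 18 clusters had a median of 82.5 bp and all clusters one of 89 bp. Single positions made up 4 of the 18 (22.2%, exact 95% interval 6.41 to 47.6%), against 8.87% of all clusters, a share inside that interval. The interval takes the 18 clusters as independent, although 2 of the 4 single positions are at Tet3, and the difference was not tested. The median was 87 bp at the maintenance genes, 503 bp at the de novo genes and 62.5 bp at the demethylation genes. The 10 gaps between neighbouring clusters of a gene ran from 238 to 87029 bp with a median of 18914 bp. They lay in Dnmt1, Dnmt3a, Tet1 and Tet3 only. Over 11916 gaps at protein-coding genes the median was 4527 bp and the quartiles were 836 and 21364 bp. Those come from genes of any length, whereas the 10 gaps lie in genes of 52683 to 112885 bp, and lengths were not matched. In position, 6 of the 18 clusters (33.3%) lay in the first 10% of their gene and 3 (16.7%) in the last 10%. Over protein-coding genes 35.2% of the clusters inside a gene lay in the first 10% and 10.1% in the last 10%. Within 1000 bp of a listed start lay 33.3% of the 18 clusters and 37.4% of those at protein-coding genes with a known strand. A cluster near several genes counts at each, and no test was run over genes that were named with results of these data known.

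Of 52 genes in 5 lists of partners, readers and methyl donor enzymes, 33 (63.5%) held 64 clusters, beside 47.8% of protein-coding genes. Of the 64 clusters 0 were called, where 0.0482 would be expected at the overall share of 0.0753%. Among 9 partners of maintenance 6 held a cluster, with 3 each at Hdac1, a histone deacetylase, and Usp7, a deubiquitinase, and 1 at Cdca7. Of 9 partners of de novo methylation 4 did, with 4 at the histone methyltransferase gene Ehmt2, 2 at Dppa3, which protects DNA methylation in the zygote, and 2 at the histone methyltransferase gene Nsd1. Of 15 partners of demethylation and repair 11 did, with 3 each at Gadd45b, at the uracil glycosylase gene Smug1 and at the repair scaffold gene Xrcc1. Readers of methylated DNA had clusters at 6 of 9, among them 3 at Mbd2 and 2 at Zbtb33. Genes of methyl donor metabolism had clusters at 6 of 10, among them 3 at Mthfd1 and 2 at Gnmt. Of 54 start windows of the 52 genes, 7 (13.0%) overlapped a cluster, beside 7.76% of all start windows. The 52 genes were not matched to the others by length, nor their windows by CpG, and neither difference was tested.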

How the data were processed

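Reduced representation bisulfite libraries were made from 4 fixed and 4 live samples with 95 ng of DNA each and read for 76 cycles with 20% PhiX, per the labels' protocols. Per the submitters' processing notes, the tools included Bismark 0.14.4, Trim Galore 0.4 and ChIPseeker 1.12.1, with build mm10. The calling and filtering of clusters were not given in the sources used here, and read depth is unknown. The authors deposited positions of 21 significant and 27857 not significant clusters, plus a table of the 21 regions with a p-value and a signed methylation difference each, as a fraction. Its columns for group 1 and group 2 were not used.

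Both lists were pooled and overlapped with RefSeq genes and start windows of GRCm38.p6, with 1-based coordinates. No genome or exon annotation was used. Overlap counting was tested on simulated data. The genes, gene lists and alternatives were chosen with earlier results of these data known, so the members are described with no test. Companion genes named are the up to 3 with the most clusters in each list; some that this rule covers are not reported here, and counts include them. Intervals and limits, the latter set at 3 counts, cover counting error only. The tools were numpy 2.4.6, pandas 2.3.3, matplotlib 3.10.9, scipy 1.17.1 and Python 3.11.15.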

Additional observations from a re-analysis of the deposited data

How the results depend on the processing

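The 18 clusters at 8 genes were also found with gene bounds only and with 1000 bp flanks, and the count was 18 with 50% overlap, with the midpoint rule, with merging within 200 bp and without the 73 clusters that open the list of not significant clusters. It was 17 with merging within 500 bp, 14 with clusters of at least 50 bp, which left Tet3 with 0, and 21 with flanks of 10000 bp, which gave Dnmt3l its 1 cluster. The count of called clusters was 0 with flanks of 10000 and 100000 bp and with those 73 clusters counted as called. The median length was 104 bp with clusters of at least 50 bp and 89 bp with merging within 500 bp, and the median gap was 19610 bp with that merging. Clusters at a listed start of their own gene numbered 4 in the start windows, 6 within 1000 bp and 8 within 3000 bp, since the window is wider. The share of genes with a cluster was 30.8% over all RefSeq genes, which include noncoding ones, and 48.6% over autosomal protein-coding genes. No paired analysis was possible because values per sample were not part of the tables, and for the same reason no sample could be left out. The unknown read depth limits what a gene without a cluster can show.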

Other observations

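The start window of Tet2, which held the most CpG of the 16 and no cluster, also held the longest repeat. A run of 43 bases stood in it at more than 1 place, and 99.5% of all start windows had a shorter longest repeat. In the other 15 windows the longest repeat was 7 to 13 bases. Whether repeats bear on cluster coverage was not tested.

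Only 21 regions were called in all, and 0 lay within 100000 bp of these genes. Distances for other genes are not given here, so those below cannot set the 9 genes apart. The smallest distance was 7404083 bp, between Tet1 and the region at 70291552 to 70291772 on chromosome 10, assigned to Slc16a9, for which the authors' deposited table gives a median methylation difference of -22.1 points. Its direction between fixed and live is not stated. Chromosomes 2 and 6, which carry Dnmt3b and Tet3, had 0 called regions.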
